A study of Mus musculus with 16 samples.

Results

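The collagen chains of this report are the 44 genes, of 55573 in the deposited table, whose mouse symbol has the form Col, a number, a and a number. The symbols were matched from Ensembl identifiers and no measured value entered the choice. Each gene encodes an alpha chain of a collagen, and the group holds fibrillar, basement membrane, beaded filament, hexagonal network, fibril-associated, multiplexin, transmembrane and some other collagens. Of the 44 members, 38 passed a filter on low counts and were tested among 20822 genes. The other 6 (Col2a1, Col9a1, Col9a2, Col19a1, Col22a1 and Col25a1) had 0 to 10 counts in a library and 8 to 63 counts over all 16 libraries, and were not tested.

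RNA was sequenced from eWAT, the epididymal white fat depot, of male C57BLKS/J-db/db mice, which lack the long form of the leptin receptor and become obese and diabetic. There were 4 groups of 4 mice, treated with AAV8-LRG1-FL or AAV8-eGFP and killed at 7 or 10 weeks of age. Week 7 and week 10 are ages of the mice throughout, not times after injection. All 16 mice carried the db/db genotype and an AAV8 vector given at 4 weeks of age. AAV8-LRG1-FL encodes FLAG-tagged LRG1, a secreted leucine-rich glycoprotein, and AAV8-eGFP encodes green fluorescent protein from the same CB7 promoter, which is not restricted to a cell type. The vectors were injected by the retro-orbital route, and as AAV8 reaches liver as well as fat, the cells that made LRG1 were not limited to the tissue sequenced. A cage of 4 mice was assigned to a vector as a whole, and a cage effect therefore cannot be told apart from that of the vector.

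Collagens are secreted as trimers of alpha chains wound into a triple helix. Types I, III and V form the fibrils of the interstitial matrix, type IV forms the sheet-like network of basement membranes that surrounds each adipocyte and every capillary, and type VI forms beaded filaments that link both and is abundant in fat. Fibril-associated collagens decorate fibrils, and multiplexins (types XV and XVIII) sit at the border of the basement membrane.

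The libraries held 45376227 to 67539937 counts. Levels are given in CPM, the count of a gene scaled to a common library total after TMM adjustment (a trimmed mean that aligns most genes between libraries). Lrg1 was counted at 478, 302, 316 and 288 CPM in LRG1 libraries of week 7, against 86.2, 108, 110.2 and 107 CPM in eGFP libraries. At week 10 it was at 506, 624, 428 and 286 CPM in LRG1 libraries and at 99.6, 115, 106 and 105 CPM in eGFP libraries, so each library followed its label, although the counts do not separate the vector's transcript from that of the mouse gene. Adipocyte markers were present in every library, and 8 markers of epididymal epithelium summed to at most 1.61 CPM. At week 10 the eGFP libraries of replicates 1 and 3 stood apart from the others of their group. A list of 10 adipocyte markers made up 0.839% and 0.835% of their counts, against 1.84% and 1.69% in replicates 2 and 4. A list of 10 smooth muscle and pericyte markers made up 0.0188% and 0.0145%, against 0.05% and 0.0431%. The main results of week 10 are therefore given with these libraries and also without them.

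Of the members that passed the test in the same direction at both weeks (below), 4 matched a promoter window in a RefSeq table on GRCm38.p6, each 250 bases before to 50 bases after the annotated start. They are shown 5′ to 3′ on the gene's strand because these genes carry the calls shared by both weeks, and because Col4a1 and Col4a2, which encode the alpha chains of the common type IV network, are transcribed head to head from a shared promoter and their levels are set side by side in what follows. Capitals mark CCAAT boxes (CCAAT or, on the other strand, ATTGG) and GC boxes (GGGCGG or CCGCCC).
Col4a1, chr8:11312777-11313076, minus strand: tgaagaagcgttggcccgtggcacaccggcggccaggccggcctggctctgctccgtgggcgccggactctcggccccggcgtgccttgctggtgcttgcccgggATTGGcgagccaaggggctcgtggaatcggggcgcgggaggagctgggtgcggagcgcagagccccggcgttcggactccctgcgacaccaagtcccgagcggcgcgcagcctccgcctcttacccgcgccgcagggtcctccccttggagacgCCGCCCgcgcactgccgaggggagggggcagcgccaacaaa
Col4a2, chr8:11312555-11312854, plus strand: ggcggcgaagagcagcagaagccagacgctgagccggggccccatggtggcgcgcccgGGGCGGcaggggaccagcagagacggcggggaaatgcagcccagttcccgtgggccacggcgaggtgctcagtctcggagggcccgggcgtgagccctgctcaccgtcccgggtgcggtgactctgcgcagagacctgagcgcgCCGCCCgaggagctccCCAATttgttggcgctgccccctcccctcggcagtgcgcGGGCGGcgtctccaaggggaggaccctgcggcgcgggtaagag
Col6a2, chr10:76623355-76623654, minus strand: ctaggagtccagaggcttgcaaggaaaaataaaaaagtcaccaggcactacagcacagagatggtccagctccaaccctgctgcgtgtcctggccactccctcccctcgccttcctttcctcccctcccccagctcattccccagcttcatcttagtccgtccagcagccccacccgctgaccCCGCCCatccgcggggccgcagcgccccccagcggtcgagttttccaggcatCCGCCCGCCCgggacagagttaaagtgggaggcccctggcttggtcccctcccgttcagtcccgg
Col11a1, chr3:114030290-114030589, plus strand: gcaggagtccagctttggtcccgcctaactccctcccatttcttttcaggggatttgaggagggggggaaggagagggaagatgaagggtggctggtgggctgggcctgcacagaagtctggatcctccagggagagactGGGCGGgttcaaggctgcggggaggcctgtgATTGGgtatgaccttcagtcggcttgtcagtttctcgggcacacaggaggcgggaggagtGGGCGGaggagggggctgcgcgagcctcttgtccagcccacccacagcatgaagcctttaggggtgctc

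The windows of Col4a1 and Col4a2 overlap by 78 bases, and the annotated genes themselves overlap by 22 bases, from 11312805 to 11312826 on chromosome 8. The Col4a1 window holds 1 CCAAT box and 1 GC box, the Col4a2 window 1 and 3, the Col6a2 window 0 and 3, and the Col11a1 window 1 and 2. The GC box of the Col4a1 window lies in the overlap and is also counted among the 3 of the Col4a2 window. In the Col6a2 window 2 of the GC boxes overlap. Of all 32851 windows in the table, 37.4% held a CCAAT box and 35.7% held a GC box. Of the 38 windows that belong to 35 collagen genes, 34.2% held a CCAAT box and 60.5% held a GC box. Such matches are descriptions of the letters and were not tested as sites.

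The level of the chains spanned more than 3 orders of magnitude. On a per-length scale (CPM per kilobase of exon, mean of 16 libraries), Col3a1, the chain of type III fibrils, was at 261, followed by Col4a1 at 221, Col6a1 at 188, Col4a2 at 125 and Col6a2 at 76.5. These 5 genes held 69.1% of the summed per-length level of all 44. Col1a1 and Col1a2, the chains of type I, had 61.3 and 53.0 CPM per kilobase, Col5a2 of type V had 53.1 and the multiplexin Col15a1 had 51.1. The 14 members above 10 CPM per kilobase held 97.4% of the sum, and 22 members, 16 of them tested, were below 1 CPM per kilobase. Neighbours in this order could overlap. In the LRG1 libraries of week 7, Col3a1 ran from 261 to 279.5 CPM per kilobase and Col4a1 from 235 to 291, whereas in the eGFP libraries of that week Col3a1 ran from 249 to 344 and Col4a1 from 161 to 211.

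**Figure D1:**
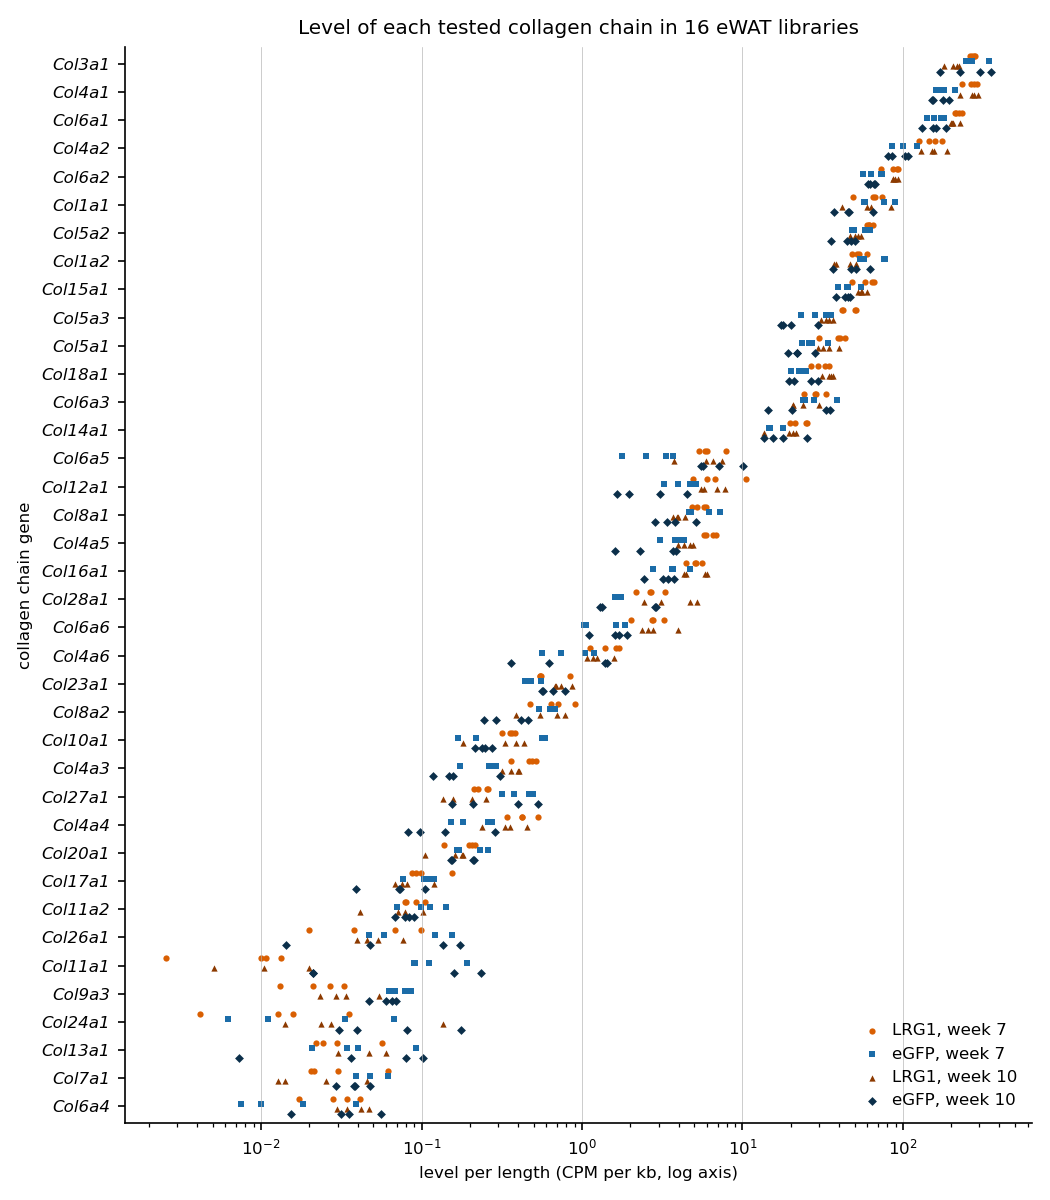
Level per length (CPM per kilobase, log axis) of the 38 tested collagen chains, 1 point per library and 4 libraries per group, ordered by the mean of 16 libraries. Col3a1, Col4a1, Col6a1, Col4a2 and Col6a2 lead, 16 chains average below 1 CPM per kilobase, and 2 values of 0 (Col11a1 and Col13a1, each in 1 LRG1 library of week 10) cannot be drawn on a log axis.

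At week 7, 7 of the 38 tested collagen chains were higher in LRG1 than in eGFP eWAT and 2 were lower, at an adjusted p below 0.01 in edgeR's quasi-likelihood test with Benjamini-Hochberg adjustment over all 20822 genes. Log2 fold changes are given ± SE throughout. The background was 7.37% of all tested genes called higher and 10.7% called lower. In either direction, 23.7% of the tested chains were called, beside 18% of all tested genes. The chains called higher were Col4a1 and Col4a2 of the basement membrane, Col6a1, Col6a2, Col6a5 and Col6a6 of type VI, and Col5a3 of type V. Col11a1 and Col9a3, chains best known from cartilage, were lower. The median log2 fold change of the 38 was 0.36, beside 0.01 over all tested genes, and 23 of 38 were positive. In 12 chains all 4 LRG1 libraries lay above all 4 eGFP libraries (18.6% of all tested genes did), and in 3 they lay below (19.4%). At an adjusted p below 0.05, 15 chains were higher (15% of all genes) and 2 lower (16.5%).

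The number of calls at week 7 depended on single libraries. It was 2 higher without eGFP replicate 1, 2 without eGFP replicate 2, 3 without eGFP replicate 4, and 2, 1 and 3 without LRG1 replicates 1, 3 and 4, and the number lower was 1, 0 and 1 without LRG1 replicates 1, 3 and 4. Over all genes, the number higher was 705, 850 and 913 without those eGFP replicates and 1019, 758 and 889 without those LRG1 replicates. It was 1534 with all libraries. Scaling by library size alone, which moved the median of all genes to -0.15, left 1 chain higher, and 2 lower as before. Every one of the 9 called chains kept its sign in each of these fits. Col4a1 kept an adjusted p below 0.01 without any one library, with a highest value of 0.0096, and each of the other 8 lost its call without at least 1 library.

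At week 10, 8 chains were higher with LRG1 and 1 was lower. The background was 3.66% higher and 5.24% lower. In either direction, 23.7% of the tested chains were called, beside 8.9% of all tested genes. Col4a1, Col4a2, Col5a3 and Col6a2 were higher again, Col4a3, Col12a1, Col16a1 and Col18a1 were called higher at week 10 and not at week 7 (no difference between the weeks passed its own test, below), and Col11a1 was lower again. The median of the 38 was 0.29, beside -0.00 over all genes, and 25 of 38 were positive. The 2 weeks share no library. The log2 fold change had the same sign at both weeks in 34 of 38 chains, positive in 22 and negative in 12. The same share over all genes was not computed, and the week 10 sign of 11 chains turned without eGFP replicates 1 and 3 (below). In 13 chains all LRG1 libraries lay above all eGFP libraries at week 10 (9.96% of all genes) and in 1 they lay below (10.1%). At an adjusted p below 0.05, 16 chains were higher (10.3% of all genes) and 1 lower (12.6%).

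The calls of week 10 depended on single libraries of both groups, among them eGFP replicates 1 and 3, and on fitting both weeks together. With eGFP replicates 1 and 3 both left out, a fit chosen after seeing the data, no chain was called, although 30 of 38 were positive and the median was 0.32. Calls also fell over all genes, with 87 higher and 74 lower of 21872 in that fit, against 762 and 1092 of 20822 with all libraries. The sign turned in 11 of the 38, none of them a called chain, to positive in 8 and to negative in 3. A fit of the 8 libraries of week 10 alone called none either, and of 19128 genes it called 2 higher and 10 lower, with 25 of 38 chains positive and a median of 0.30. The number higher was 1 without eGFP replicate 1, 1 without eGFP replicate 3, 14 without eGFP replicate 2, 1 without LRG1 replicate 1, 4 without LRG1 replicate 2, 1 without LRG1 replicate 3 and 0 without LRG1 replicate 4. Over all genes, the number higher in the same order was 216, 239, 1601, 289, 597, 220 and 159, against 762 with all libraries. The number of chains lower was 0 in those fits except without eGFP replicates 2 and 4, where it was 1. No called chain changed sign in any of them.

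**Figure D2:**
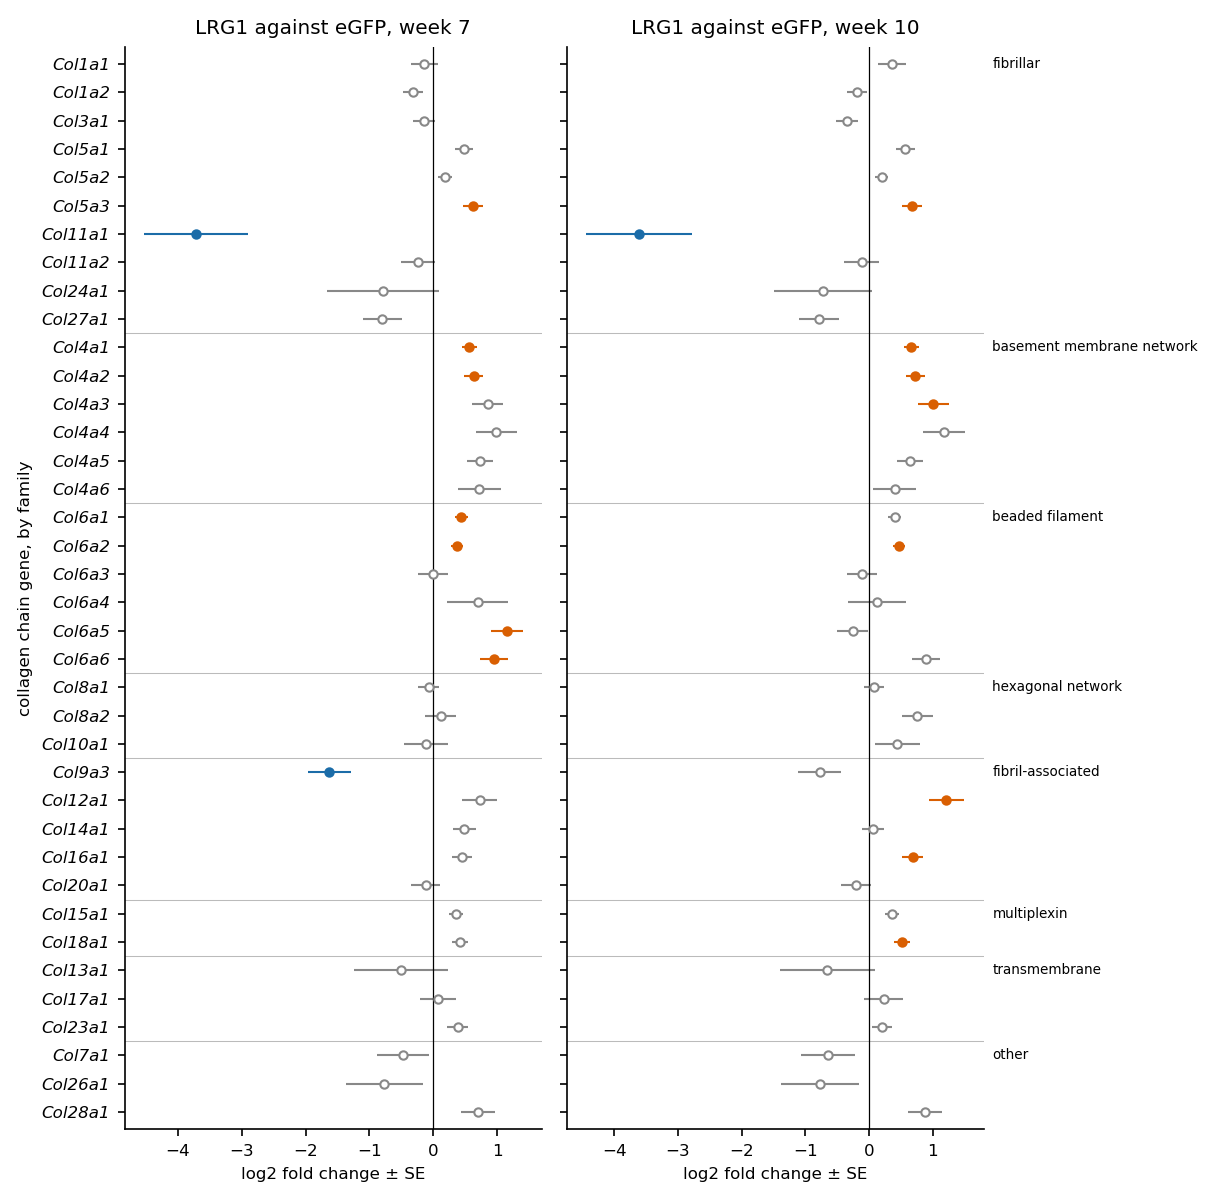
Log2 fold change ± SE of LRG1 against eGFP for the 38 tested collagen chains at week 7 (left) and week 10 (right), with n = 4 libraries a group, from 1 edgeR fit of 16 libraries. Filled points mark an adjusted p below 0.01, orange for higher and blue for lower. All 6 type IV chains lie right of 0 at both weeks (Col4a6 turns to -0.16 at week 10 without eGFP replicates 1 and 3), and Col11a1 lies at -3.72 and -3.61.

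All 6 chains of the basement membrane network were positive at both weeks, with medians of 0.72 and 0.70, except that Col4a6 turned negative at week 10 without eGFP replicates 1 and 3. Col4a1, on chromosome 8 from 11198423 to 11312826 of GRCm38, is the major chain of this network. Its level was 2173, 1752, 2057 and 1998 CPM in LRG1 libraries of week 7, against 1198, 1295, 1574 and 1344 CPM in eGFP libraries, and 2019, 1703, 2070.4 and 2209 CPM in LRG1 and 1157, 1326, 1132 and 1438 CPM in eGFP libraries of week 10. The groups did not overlap at either week. The log2 fold change was 0.56 ± 0.12 (adjusted p = 0.00199) at week 7 and 0.66 ± 0.12 (adjusted p = 0.00204) at week 10. Without eGFP replicates 1 and 3 of week 10 it was 0.53 with an adjusted p of 0.0216.

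Col4a2, its partner from 11312805 to 11449287, was at 1168, 836, 1053 and 967 CPM in LRG1 and 568, 568, 807 and 659 CPM in eGFP libraries of week 7, and at 1031, 860.4, 1003 and 1243 CPM in LRG1 and 567, 679.6, 533 and 717 CPM in eGFP libraries of week 10. Again no LRG1 library was as low as an eGFP library. The change was 0.63 ± 0.15 (adjusted p = 0.00436) at week 7 and 0.73 ± 0.15 (adjusted p = 0.00376) at week 10, where it was 0.57 with an adjusted p of 0.0582 without eGFP replicates 1 and 3. Col4a3, on chromosome 1 from 82586921 to 82722059, is a chain of the minor network known from kidney and lung, and 5.65% of its exon bases lie in a gene on the other strand (the strand setting of the counting is not given in the sources used here). It had 3.58, 3.15, 3.97 and 4.02 CPM in LRG1 libraries of week 10, against 1.47, 3.05, 1.17 and 1.57 CPM in eGFP libraries. Here the lowest of the eGFP group were replicates 1, 3 and 4, and without replicates 1 and 3 the change of 1.01 ± 0.25 (adjusted p = 0.00992) became 0.67 with an adjusted p of 0.155. At week 7 Col4a3 stood at 0.85 ± 0.24 (adjusted p = 0.0141) and did not pass. The 3 remaining chains, singled out after their values were seen, were not called by edgeR. Col4a4 had log2 fold changes of 0.99 at week 7 and 1.18 at week 10, and DESeq2 called it at both (adjusted p = 0.00784 and 0.00221). Col4a5 had 0.73 and 0.64, and at week 7 DESeq2 (adjusted p = 0.00255) and limma-voom (adjusted p = 0.00699) called it. Col4a6 had 0.72 and 0.40. The changes of week 10 without eGFP replicates 1 and 3 were 0.70 for Col4a4, 0.25 for Col4a5 and -0.16 for Col4a6.

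Type VI is built from Col6a1, Col6a2 and either Col6a3 or one of its long relatives. Col6a1 and Col6a2 lie close together on chromosome 10, from 76708792 to 76726168 and from 76595762 to 76623630. Col6a1 was at 974, 930.5, 1017 and 942 CPM in LRG1 and 616, 762, 793 and 686 CPM in eGFP libraries of week 7, with no overlap and a log2 fold change of 0.44 ± 0.10 (adjusted p = 0.00505). At week 10 its levels were 874, 889.8, 988 and 905 CPM in LRG1 and 575, 811, 676 and 702 CPM in eGFP libraries, and the change of 0.40 ± 0.10 (adjusted p = 0.0124) missed the threshold, as did that of 0.27 (adjusted p = 0.137) without eGFP replicates 1 and 3. Col6a2 had 762, 605, 776 and 719 CPM in LRG1 libraries of week 7, against 472, 604, 615 and 530.2 CPM in eGFP libraries, where 1 LRG1 library lay below 1 eGFP library. It was the weakest call of that week (log2 fold change 0.37 ± 0.10, adjusted p = 0.00936). At week 10 Col6a2 had 742, 723, 721 and 779.8 CPM in LRG1 and 505, 561, 551 and 523 CPM in eGFP libraries, which do not overlap, with a change of 0.47 ± 0.10 (adjusted p = 0.00418) (0.45 and 0.0343 without eGFP replicates 1 and 3).

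Col6a3, the third chain of the common trimer, did not pass the test at either week. It was at 398, 288, 340.0 and 346 CPM in LRG1 and 286, 335, 463 and 295 CPM in eGFP libraries of week 7, a change of -0.01 ± 0.23 (adjusted p = 0.984). At week 10 it was at 248, 286, 248 and 359 CPM in LRG1 and 422, 244, 397 and 173 CPM in eGFP libraries, a change of -0.11 ± 0.23 (adjusted p = 0.765). The eGFP libraries of replicates 1 and 3 were the highest of all 8 and replicate 4 the lowest, and without replicates 1 and 3 the change turned to 0.45 (adjusted p = 0.234).

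The long relatives Col6a5 and Col6a6, neighbours on chromosome 9 from 105856078 to 105960643 and from 105687809 to 105828160, were expressed at much lower levels and had the largest rises among the chains called at week 7. Col6a5 had 56.3, 55.4, 74.7 and 50.6 CPM in LRG1 libraries of week 7, against 16.8, 23.5, 34.7 and 31.6 CPM in eGFP libraries, a fold of 2.22 (log2 fold change 1.15 ± 0.25, adjusted p = 0.00257). At week 10 it had 35.4, 69.8, 61.9 and 56.0 CPM in LRG1 and 94.5, 51.8, 67.2 and 53.2 CPM in eGFP libraries, which overlapped (log2 fold change -0.26 ± 0.24, adjusted p = 0.475), and the change turned to 0.09 (adjusted p = 0.9) without eGFP replicates 1 and 3. Col6a6 had 25.1, 18.4, 29.6 and 25.5 CPM in LRG1 and 9.46, 9.78, 17 and 14.9 CPM in eGFP libraries of week 7 (log2 fold change 0.95 ± 0.22, adjusted p = 0.00432). Its levels at week 10, 25.3, 23.5, 21.8 and 36.6 CPM in LRG1 and 15.6, 17.4, 10.1 and 14.7 CPM in eGFP libraries, did not overlap either, but the change of 0.89 ± 0.22 (adjusted p = 0.0105) fell just short of the threshold (0.74 with an adjusted p of 0.112 without eGFP replicates 1 and 3).

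**Figure D3:**
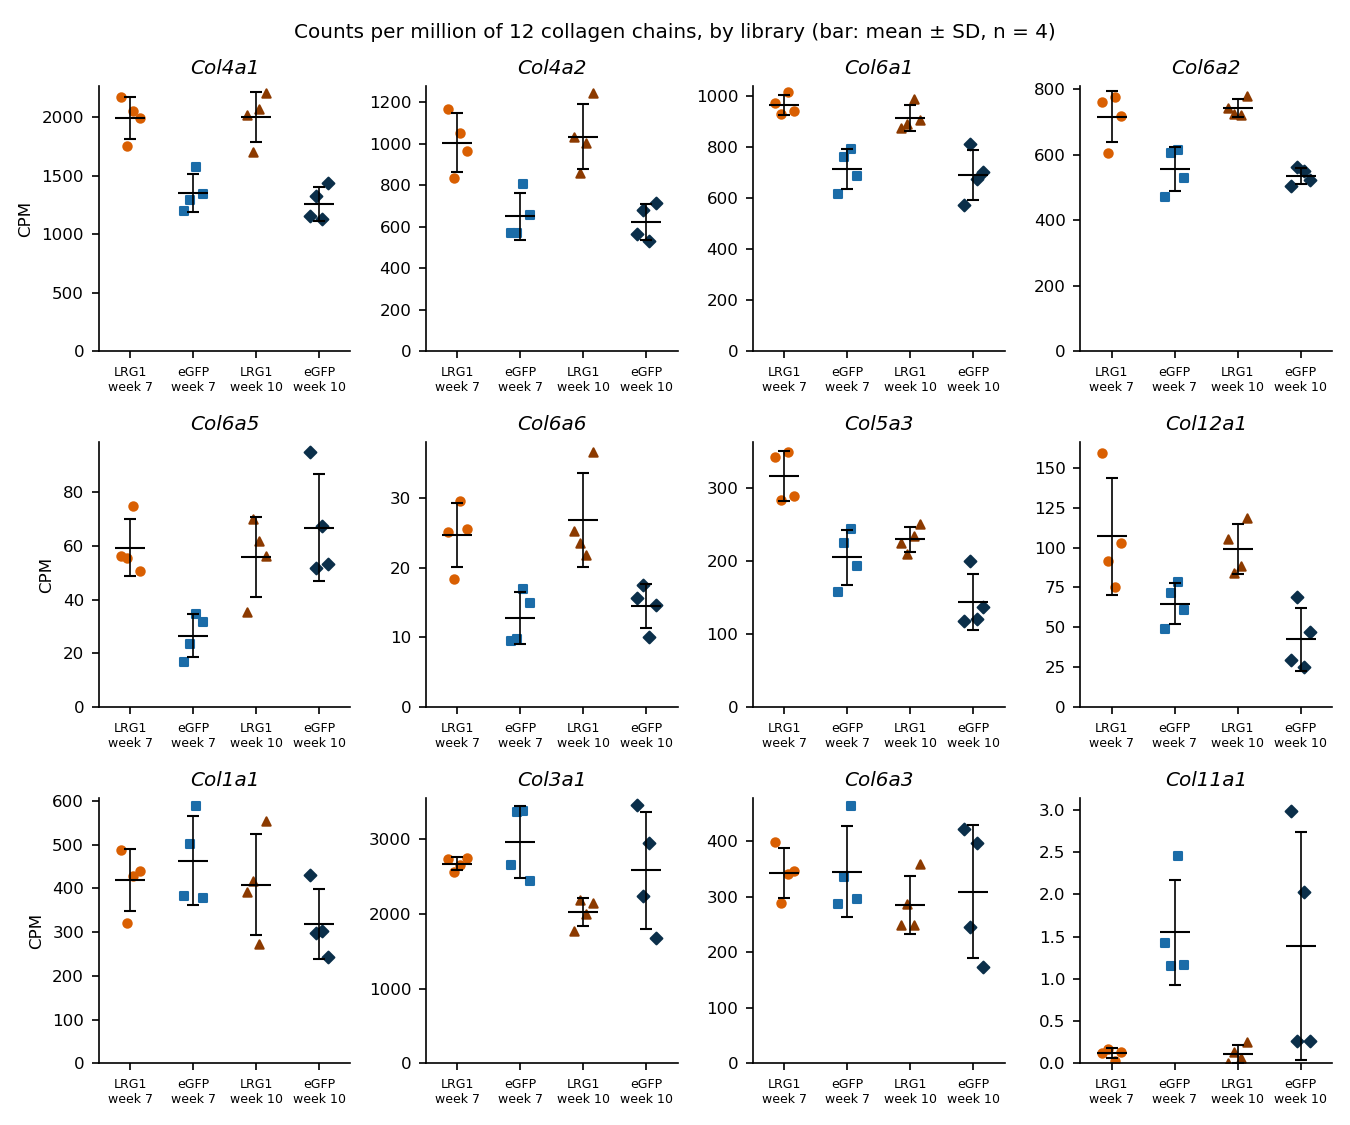
CPM of 12 collagen chains in each of the 16 libraries, LRG1 left of eGFP at each week, with bars for the mean ± SD (n = 4) and a linear axis from 0. Col4a1 and Col4a2 separate the groups at both weeks, Col6a5 at week 7, and Col1a1, Col3a1 and Col6a3 at neither. The spread of Col11a1, Col3a1 and Col6a3 is widest in the eGFP libraries of week 10.

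Among the fibrillar chains, the genes of types I and III did not pass the test at either week. Col1a1 was at 488, 321, 428 and 441 CPM in LRG1 and 384, 502, 589 and 378 CPM in eGFP libraries of week 7, and at 392, 417, 273 and 554 CPM in LRG1 and 430.3, 298, 303 and 243 CPM in eGFP libraries of week 10. Its log2 fold changes were -0.14 ± 0.21 (adjusted p = 0.65) and 0.36 ± 0.21 (adjusted p = 0.24). Col1a2 was at 738, 598, 664 and 645 CPM in LRG1 and 707, 951, 964 and 675 CPM in eGFP libraries of week 7, with changes of -0.32 ± 0.16 (adjusted p = 0.143) at week 7 and -0.19 ± 0.16 (adjusted p = 0.427) at week 10. At week 10 the LRG1 libraries of Col1a2 ran from 461 to 633 CPM and the eGFP libraries from 455 to 777 CPM. Col3a1, the most abundant chain per length, had 2740.1, 2563, 2651 and 2744 CPM in LRG1 and 2650.5, 3371, 3375 and 2443 CPM in eGFP libraries of week 7 (log2 fold change -0.15 ± 0.18, adjusted p = 0.566). At week 10 it had 1769, 2191, 2004 and 2149 CPM in LRG1 and 3463, 2234, 2952 and 1681 CPM in eGFP libraries (log2 fold change -0.35 ± 0.18, adjusted p = 0.165). The groups of all 3 genes overlapped at both weeks. Without eGFP replicates 1 and 3 of week 10, the change of Col3a1 turned to 0.05 (adjusted p = 0.889) and that of Col1a2 to 0.05 (adjusted p = 0.916), and that of Col1a1 was 0.60 (adjusted p = 0.178).

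Type V, which forms heterotypic fibrils with type I and limits their diameter, was positive in all 3 of its chains. Col5a3, on chromosome 9 from 20770050 to 20815067, had 342, 284, 349 and 289 CPM in LRG1 libraries of week 7, against 158, 225, 244 and 193 CPM in eGFP libraries (log2 fold change 0.62 ± 0.16, adjusted p = 0.00759). At week 10 it had 225, 209, 234 and 250.3 CPM in LRG1 and 118, 201, 121 and 137 CPM in eGFP libraries (log2 fold change 0.67 ± 0.16, adjusted p = 0.00864), and the change was 0.44 with an adjusted p of 0.146 without eGFP replicates 1 and 3. No library of LRG1 was below one of eGFP at either week. Col5a1 reached 0.48 ± 0.15 (adjusted p = 0.0209) and 0.57 ± 0.15 (adjusted p = 0.0124), and Col5a2 only 0.18 ± 0.11 (adjusted p = 0.212) and 0.20 ± 0.11 (adjusted p = 0.193), none past the threshold (0.44 and 0.34 at week 10 without eGFP replicates 1 and 3). Without LRG1 replicate 1, 2, 3 or 4 or without eGFP replicate 1, 2 or 4 of week 7, Col5a3 also lost its call of that week, with adjusted p up to 0.0299.

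Col11a1, a fibril-nucleating chain, on chromosome 3 from 114030540 to 114220718, had the largest log2 fold change in size of all tested members at both weeks. It was at 0.127, 0.169, 0.0325 and 0.138 CPM in LRG1 libraries of week 7, against 1.42, 1.15, 2.46 and 1.17 CPM in eGFP libraries, which is 2 to 10 counts against 73 to 174 counts. At week 10 the LRG1 libraries held 0, 7, 4 and 14 counts (3 counts in the library at 0 would be 0.0524 CPM), and the eGFP libraries 195, 16, 78 and 16 counts. The groups did not overlap at either week, but at week 10 the eGFP libraries of replicates 2 and 4, at 0.269 and 0.270 CPM, were just above the highest LRG1 library at 0.252 CPM. The log2 fold change was -3.72 ± 0.82 (adjusted p = 0.00311) at week 7 and -3.61 ± 0.83 (adjusted p = 0.00729) at week 10, and without eGFP replicates 1 and 3 of week 10 it was -1.26 with an adjusted p of 0.368. The list of 8 cartilage markers summed to at most 2.84 CPM in a library, and Acan, which defines cartilage, to at most 0.0958 CPM.

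Of the fibril-associated chains, Col12a1 and Col16a1 were called higher at week 10 only, a difference between weeks that did not pass its own test. Col12a1, which binds type I fibrils and is known from tissues under load, lies on chromosome 9 from 79598991 to 79718831. It was at 105, 84.1, 88.2 and 119 CPM in LRG1 and 29.8, 68.8, 25.1 and 47.0 CPM in eGFP libraries of week 10, a fold of 2.32 (log2 fold change 1.21 ± 0.28, adjusted p = 0.00729). The eGFP libraries of replicates 1 and 3 were the lowest, and without them the change was 0.78 with an adjusted p of 0.103. At week 7 it had 159, 91.3, 75.0 and 103 CPM in LRG1 and 49.3, 71.6, 78.1 and 60.7 CPM in eGFP libraries (log2 fold change 0.72 ± 0.28, adjusted p = 0.0574). Col16a1, on chromosome 4 from 130047840 to 130099283, had 39.3, 30.0, 29.1 and 40.7 CPM in LRG1 and 21.4, 25.3, 16.5 and 23.3 CPM in eGFP libraries of week 10 (log2 fold change 0.68 ± 0.16, adjusted p = 0.0075, and 0.52 with 0.108 without eGFP replicates 1 and 3). At week 7 its change was 0.45 ± 0.16 (adjusted p = 0.0411).

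Col9a3, on chromosome 2 from 180597790 to 180622189, was called lower at week 7 from very few counts. The LRG1 libraries held 8, 3, 5 and 6 counts and the eGFP libraries 21, 17, 17 and 19, which do not overlap (log2 fold change -1.63 ± 0.34, adjusted p = 0.00234). At week 10 they held 12, 6, 8 and 5 counts with LRG1 and 15, 16, 7 and 15 with eGFP (log2 fold change -0.78 ± 0.34, adjusted p = 0.106, and -0.92 with 0.282 without eGFP replicates 1 and 3). Some 6.07% of its exon bases lie in Tcfl5 on the other strand.

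Both multiplexins were positive at both weeks. Col18a1, on chromosome 10 from 77052178 to 77166548, which carries the precursor of endostatin, was at 242, 259, 221 and 249.9 CPM in LRG1 and 146, 208, 138 and 187 CPM in eGFP libraries of week 10 (log2 fold change 0.52 ± 0.12, adjusted p = 0.00886). The change was 0.30 without eGFP replicates 1 and 3, with an adjusted p of 0.138. At week 7 it was at 229.9, 187, 243 and 208 CPM in LRG1 and 142, 175, 172 and 158 CPM in eGFP libraries, with no overlap and a change of 0.42 ± 0.12 (adjusted p = 0.0167), short of the threshold. Col15a1, a chain of vascular and muscle basement membrane zones, stood at 0.36 ± 0.11 (adjusted p = 0.0252) and 0.36 ± 0.11 (adjusted p = 0.0309), and its groups overlapped at week 7 and not at week 10 (0.40 with an adjusted p of 0.115 without eGFP replicates 1 and 3). None of the 3 hexagonal network chains, the 3 tested transmembrane chains and the 3 others (Col7a1, Col26a1 and Col28a1) was called by edgeR in any of the 5 comparisons, and DESeq2 called Col28a1 higher at week 10 (log2 fold change 0.88, adjusted p = 0.0065). Their log2 fold changes ran from -0.77 to 0.70 at week 7 and from -0.77 to 0.88 at week 10.

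As the chains of a trimer need not change together, ratios of per-length levels were compared for 9 pairs at both weeks, 18 exact two-sided permutation tests of 4 against 4 libraries in which the smallest possible p is 0.0286. None passed after adjustment, the smallest adjusted p being 0.257. An adjusted p below 0.05 could be reached only if most of the 18 tests gave the smallest possible p. The tests therefore cannot show that the ratios were unchanged. The ratio of Col4a1 to Col4a2 was 1.77 in LRG1 and 1.85 in eGFP libraries at week 7 (exact p = 0.343, adjusted p = 0.475) and 1.72 in LRG1 and 1.80 in eGFP libraries at week 10, so that the log2 ratio differed by -0.07 and -0.06. The ratio of Col6a3 to Col6a1 was 0.129 in LRG1 and 0.174 in eGFP libraries at week 7, lower in each LRG1 library than in any eGFP library (exact p = 0.0286, adjusted p = 0.257), and 0.113 in LRG1 and 0.155 in eGFP libraries at week 10, where the groups overlapped (exact p = 0.343). The direction turned at week 10 without eGFP replicates 1 and 3, with 0.113 in LRG1 and 0.0998 in eGFP libraries. The ratio of Col1a1 to Col1a2 was 1.41 in LRG1 and 0.981 in eGFP libraries at week 10, higher in each LRG1 library (exact p = 0.0286, adjusted p = 0.257), and 1.19 in LRG1 and 1.06 in eGFP libraries at week 7, where the groups overlapped (exact p = 0.114). The ratio of Col3a1 to Col1a1 at week 10 was 3.41 in LRG1 and 5.34 in eGFP libraries (exact p = 0.0571, adjusted p = 0.343). Without eGFP replicates 1 and 3, the ratio of Col1a1 to Col1a2 at week 10 was 1.41 in LRG1 and 0.987 in eGFP libraries, and that of Col3a1 to Col1a1 was 3.41 in LRG1 and 4.82 in eGFP libraries.

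Summed over the 44 members, collagen transcripts made up 1.07 ± 0.104% of all counts in LRG1 and 1.03 ± 0.155% in eGFP libraries of week 7 (SD, n = 4), with overlapping ranges. At week 10 they made up 0.986 ± 0.0646% in LRG1 and 0.844 ± 0.123% in eGFP libraries, also overlapping. Type IV made up 0.294 ± 0.0361% in LRG1 and 0.219 ± 0.0334% in eGFP libraries of week 7, and 0.303 ± 0.0354% in LRG1 and 0.191 ± 0.0380% in eGFP libraries of week 10, where the groups did not overlap. Fibrillar chains made up 0.480 ± 0.0401% in LRG1 and 0.559 ± 0.0958% in eGFP libraries of week 7, and 0.392 ± 0.0356% in LRG1 and 0.424 ± 0.106% in eGFP libraries of week 10. The mean fibrillar share of week 10 without eGFP replicates 1 and 3 was 0.392% in LRG1 and 0.369% in eGFP libraries, so that its direction turned. Type IV then made up 0.303% in LRG1 and 0.221% in eGFP libraries, and all 44 chains 0.986% in LRG1 and 0.835% in eGFP libraries. These sums were described and not tested.

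**Figure D4:**
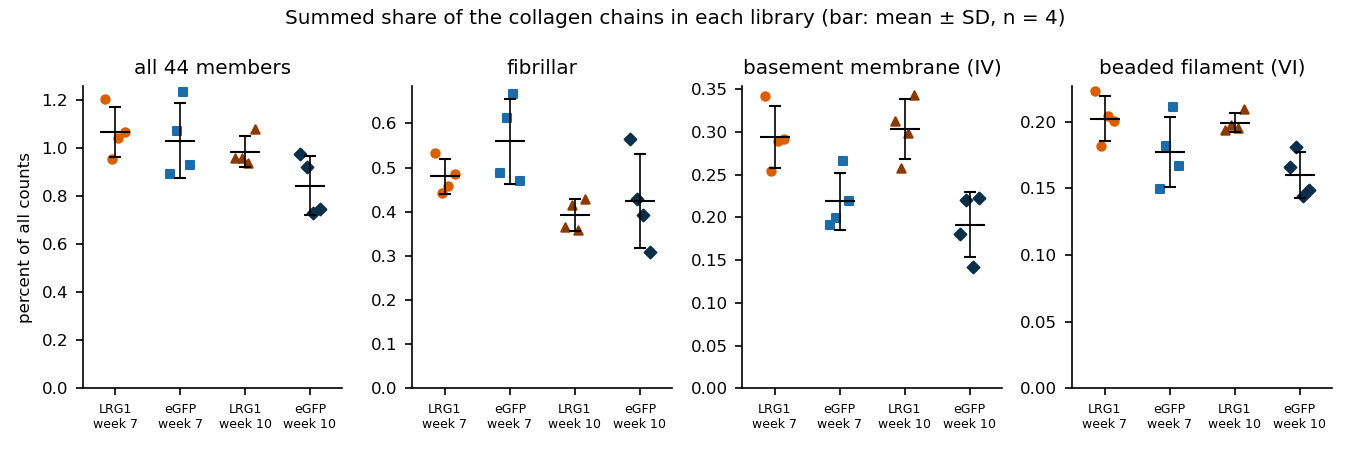
Summed share of all counts (percent, linear axis from 0) of the 44 collagen chains and of 3 families in each library, LRG1 left of eGFP at each week, with bars for the mean ± SD (n = 4). Type IV separates LRG1 (0.258 to 0.344%) from eGFP (0.142 to 0.223%) at week 10, and the fibrillar sum overlaps between the groups at both weeks.

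The change of the LRG1 effect between the weeks was tested for each chain, and none was called by edgeR (the background was 0.327% of all genes). At an unadjusted p below 0.05, 0 chains were higher and 1 was lower. This was Col6a5, with a change of -1.41 ± 0.35 (adjusted p = 0.0701), which DESeq2 called with an adjusted p of 0.00505. Without eGFP replicates 1 and 3 of week 10 it was -1.07 (adjusted p = 0.0614) in edgeR, where again no chain was called (284 of 21872 genes were higher and 182 lower). Within the LRG1 mice no chain differed between week 10 and week 7 in edgeR, DESeq2 or limma-voom (background 0.00961%), with 0 chains higher and 5 lower at an unadjusted p below 0.05. Within the eGFP mice 1 chain was called, with a background of 0.629% of all genes higher and 1.51% lower (at an adjusted p below 0.05, 1 chain was lower, beside 3.56% of all genes). This was again Col6a5, with 94.5, 51.8, 67.2 and 53.2 CPM at week 10 and 16.8, 23.5, 34.7 and 31.6 CPM at week 7, a fold of 2.50 (log2 fold change 1.32 ± 0.25, adjusted p = 0.00482). Without eGFP replicates 1 and 3 of week 10 its change was 0.98 with an adjusted p of 0.0121, and Col3a1 (-0.60, adjusted p = 0.00719) and Col27a1 (-1.19, adjusted p = 0.00296) were then called lower at week 10. In that fit 1063 of 21872 genes were called higher and 1146 lower, so that 2 of 38 chains lower was near the share of all genes. The call of Col6a5 was also lost without eGFP replicate 1, 2 or 4 of week 7 or replicate 1 or 3 of week 10 alone. The contrasts between weeks use the libraries of the LRG1 contrasts and are not independent of them. Of the 38 chains, 10 were positive and 28 negative between weeks in eGFP mice, with a median of -0.19 (-0.009 over all tested genes). In LRG1 mice 12 were positive and 26 negative, with a median of -0.10 (-0.003 over all tested genes).

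The genes that fold, modify and secrete collagen were followed from lists of partners, whose counts stand beside 18% of all tested genes called at week 7 and 8.9% at week 10. Of 18 chaperones and modifying enzymes, 4 were higher and 0 lower at week 7, and 3 and 0 at week 10 (22.2% and 16.7% called). Serpinh1, the collagen chaperone of the endoplasmic reticulum, had a log2 fold change of 0.59 ± 0.11 (adjusted p = 0.000942) at week 7 and 0.70 ± 0.11 (adjusted p = 0.00138) at week 10. P3h1, a prolyl 3-hydroxylase, had 0.49 ± 0.09 (adjusted p = 0.000767) and 0.64 ± 0.09 (adjusted p = 0.00103), its cofactor Crtap had 0.40 ± 0.07 (adjusted p = 0.000784) at week 7, and Colgalt2, a collagen galactosyltransferase, had 1.08 ± 0.28 (adjusted p = 0.00745) and 1.39 ± 0.29 (adjusted p = 0.00414). The median of the 18 was 0.12 at week 7 and 0.07 at week 10. Of 11 tested genes of secretion and propeptide processing, 3 were higher and 0 lower at week 7, and 1 and 0 at week 10 (27.3% and 9.09% called). Mia3, the export receptor for bulky procollagen, had 0.32 ± 0.06 (adjusted p = 0.000778) at week 7, Tll1, a procollagen C-proteinase, had 1.31 ± 0.27 (adjusted p = 0.00182), and Creb3l2, a transcription factor of the secretory pathway, had 0.48 ± 0.11 (adjusted p = 0.00307) and 0.57 ± 0.11 (adjusted p = 0.00284).

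Of 7 cross-linking genes, 1 was higher at week 7 and 2 at week 10, with none lower (14.3% and 28.6% called). These were Pxdn, which forms the sulfilimine bonds of type IV, with 1.08 ± 0.29 (adjusted p = 0.00923) at week 7, and Lox, lysyl oxidase, with 1.22 ± 0.24 (adjusted p = 0.00339), and Tgm2, a transglutaminase, with 0.44 ± 0.10 (adjusted p = 0.0068), at week 10. Of 12 genes of collagen degradation and uptake, 1 was higher and 1 lower at week 7, and 1 higher and 5 lower at week 10 (16.7% and 50% called). Timp3, a matrix-bound inhibitor of metalloproteinases, was higher at week 7 (log2 fold change 1.04 ± 0.24, adjusted p = 0.00391) and Timp1, a soluble one, was lower (log2 fold change -1.16 ± 0.30, adjusted p = 0.00774). Mrc2, the endocytic collagen receptor, was higher at week 10 (log2 fold change 1.36 ± 0.22, adjusted p = 0.00155). The collagenase Mmp13 (log2 fold change -3.25 ± 0.61, adjusted p = 0.00286) and the lysosomal protease Ctsk (log2 fold change -1.81 ± 0.36, adjusted p = 0.00349) were among the 5 lower, as was the neutrophil collagenase Mmp8 (log2 fold change -4.18 ± 0.84, adjusted p = 0.00377), whose groups overlapped. Ctsk was at 59.5, 94.2, 62.2 and 70.1 CPM in LRG1 and 339.6, 100.3, 432 and 129 CPM in eGFP libraries of week 10, and Mmp13 at 0.716, 0.891, 0.915 and 0.649 CPM in LRG1 and 13.7, 1.23, 13.6 and 1.79 CPM in eGFP libraries. The eGFP libraries of replicates 1 and 3 were the highest in both genes.

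Of 15 partners of type IV in the basement membrane (laminins, nidogens and others), 3 were higher and 0 lower at week 7, and 2 and 0 at week 10 (20% and 13.3% called), with medians of 0.50 and 0.42. The laminin chain Lamb3 had 1.05 ± 0.22 (adjusted p = 0.00244) at week 7 and 1.30 ± 0.23 (adjusted p = 0.00204) at week 10, Lamc1 had 0.55 ± 0.13 (adjusted p = 0.00402) and the linker Nid1 0.70 ± 0.17 (adjusted p = 0.00585) at week 7, and Nid2 0.70 ± 0.16 (adjusted p = 0.00712) at week 10. Of 16 fibril-binding proteoglycans and glycoproteins, 3 were higher and 1 lower at week 7, and 1 and 0 at week 10 (25% and 6.25% called). Sparc, a collagen-binding matricellular protein, had 0.76 ± 0.18 (adjusted p = 0.00448) and 0.90 ± 0.18 (adjusted p = 0.00361), and at week 7 decorin (Dcn) had 0.48 ± 0.11 (adjusted p = 0.004) and Prelp, which anchors basement membranes to fibrils, 1.05 ± 0.27 (adjusted p = 0.00874). Keratocan (Kera), known from the cornea, was the one lower at week 7, with -5.66 ± 0.93 (adjusted p = 0.000372). Of 12 tested collagen receptors, 1 was higher and 1 lower at week 7, and 0 and 1 at week 10 (16.7% and 8.33% called). The inhibitory receptor Lair1 of leukocytes was lower with -2.16 ± 0.28 (adjusted p = 4.81e-05) and -1.92 ± 0.27 (adjusted p = 0.00104), and Adgrg1, an adhesion receptor that binds type III, was higher with 0.74 ± 0.16 (adjusted p = 0.00274) at week 7. Of 14 ligands and targets of the TGF-beta pathway, 0 were higher and 3 lower at week 7, and 1 and 3 at week 10 (21.4% and 28.6% called). The median of the 14 was nevertheless 0.19 at week 7 and 0.44 at week 10, and 9 were positive at each week. Without eGFP replicates 1 and 3 the median of week 10 was 0.01. Tgfb1 itself was lower (log2 fold changes -0.85 ± 0.18 and -0.78 ± 0.18, adjusted p = 0.00247 and 0.00791), as were its receptor Tgfbr1 (log2 fold changes -0.47 ± 0.10 and -0.48 ± 0.10, adjusted p = 0.0027 and 0.00481) and Tgfbi (log2 fold changes -0.96 ± 0.11 and -0.46 ± 0.11, adjusted p = 1.8e-05 and 0.00809), a collagen-binding protein induced by it, and the latent TGF-beta binding protein Ltbp2 was higher at week 10 (log2 fold change 1.09 ± 0.21, adjusted p = 0.0032).

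Most partner calls of week 10 were lost without the eGFP libraries of replicates 1 and 3, a fit that called 87 genes higher and 74 lower, against 762 and 1092 with all libraries. P3h1 (0.63, adjusted p = 0.00643), Serpinh1 (0.52, adjusted p = 0.00996), Sparc (0.52, adjusted p = 0.00559) and Lair1 (-1.14, adjusted p = 0.00559) were still called in edgeR. No gene of the lists of secretion and processing, cross-linking, degradation and uptake, basement membrane partners or TGF-beta was called. The change of Mmp8 was then -1.34 (adjusted p = 0.193), that of Mmp13 -0.92 (adjusted p = 0.0394), that of Ctsk -0.68 (adjusted p = 0.0673) and that of Tgfb1 -0.27 (adjusted p = 0.204). Changes also shrank to 0.79 for Lox (adjusted p = 0.0181), 0.88 for Lamb3 (adjusted p = 0.0122), 0.42 for Nid2 (adjusted p = 0.113), 0.71 for Ltbp2 (adjusted p = 0.033) and -0.22 for Tgfbr1 (adjusted p = 0.07). Some changes that were no longer called moved less, with 1.14 for Mrc2 (adjusted p = 0.0164), 1.25 for Colgalt2 (adjusted p = 0.0359), 0.41 for Tgm2 (adjusted p = 0.0655) and 0.45 for Creb3l2 (adjusted p = 0.0357).

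Markers of several cell types also differed between LRG1 and eGFP, in either direction, and their part in the result was not tested. The counts of marker calls stand beside 18% of all tested genes called at week 7 and 8.9% at week 10. In whole tissue, fewer cells of a type and less RNA per cell cannot be told apart. All 10 macrophage markers were lower at week 7 and 9 at week 10, with medians of -1.41 and -1.02, and they summed to 1299 to 1446 CPM in LRG1 and 2878 to 3553 CPM in eGFP libraries of week 7, and to 1162 to 1538 CPM in LRG1 and 1697 to 3289 CPM in eGFP libraries of week 10. Of 10 endothelial markers, 7 were higher at week 7 and 1 at week 10, with sums of 537 to 726 CPM in LRG1 and 304 to 400.0 CPM in eGFP libraries of week 7, and of 553 to 844 CPM in LRG1 and 266 to 564 CPM in eGFP libraries of week 10. Endothelium is a textbook source of type IV, and the median of its markers was 0.88 at week 7 and 0.63 at week 10, beside 0.72 and 0.70 for the type IV chains. The medians of adipocyte markers (0.69 and 0.50) and of mesothelial markers (0.62 and 0.39) were also positive at both weeks. Which cells were the source of the type IV transcripts was not tested. Of 10 smooth muscle and pericyte markers, 4 were higher at each week, with medians of 0.59 and 0.86 and sums of 616 to 646 CPM in LRG1 and 357 to 409 CPM in eGFP libraries of week 7, and of 567 to 886 CPM in LRG1 and 171 to 465 CPM in eGFP libraries of week 10.

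Of 10 adipocyte markers, 2 were higher at each week (20% called, beside 18% and 8.9% of all tested genes), with medians of 0.69 and 0.50. They summed to 15865 to 19737 CPM in LRG1 and 11899 to 12595 CPM in eGFP libraries of week 7, and to 18544 to 19921 CPM in LRG1 and 8128 to 17104 CPM in eGFP libraries of week 10. Of 12 markers of progenitors and fibroblasts, the textbook source of types I, III and VI, 2 were higher and 2 lower at week 7, and 0 and 2 at week 10, with medians of 0.46 and 0.05. They summed to 4436 to 6086 CPM in LRG1 and 3387 to 3589 CPM in eGFP libraries of week 7, and to 3744 to 5644 CPM in LRG1 and 2449 to 6718 CPM in eGFP libraries of week 10. None of 10 mesothelial markers was called (medians 0.62 and 0.39), 2 and 1 of 6 tested Schwann cell markers were higher, and none of the 4 cartilage and 5 skeletal muscle markers tested was called. Without the eGFP libraries of replicates 1 and 3, 87 of all 21872 tested genes were called higher and 74 lower at week 10. The medians were then -0.77 for macrophage (4 of 10 lower) and 0.33 for endothelial markers (0 called). They were 0.53 for smooth muscle and pericyte (1 higher), 0.08 for adipocyte (1 higher) and -0.20 for progenitor and fibroblast markers (0 called). The median was -0.11 for mesothelial markers (0 called), beside 0.32 for the 38 collagen chains. The type IV chains then lay on both sides of the endothelial median. Their changes were 0.53 for Col4a1, 0.57 for Col4a2, 0.67 for Col4a3, 0.70 for Col4a4, 0.25 for Col4a5 and -0.16 for Col4a6.

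**Figure D5:**
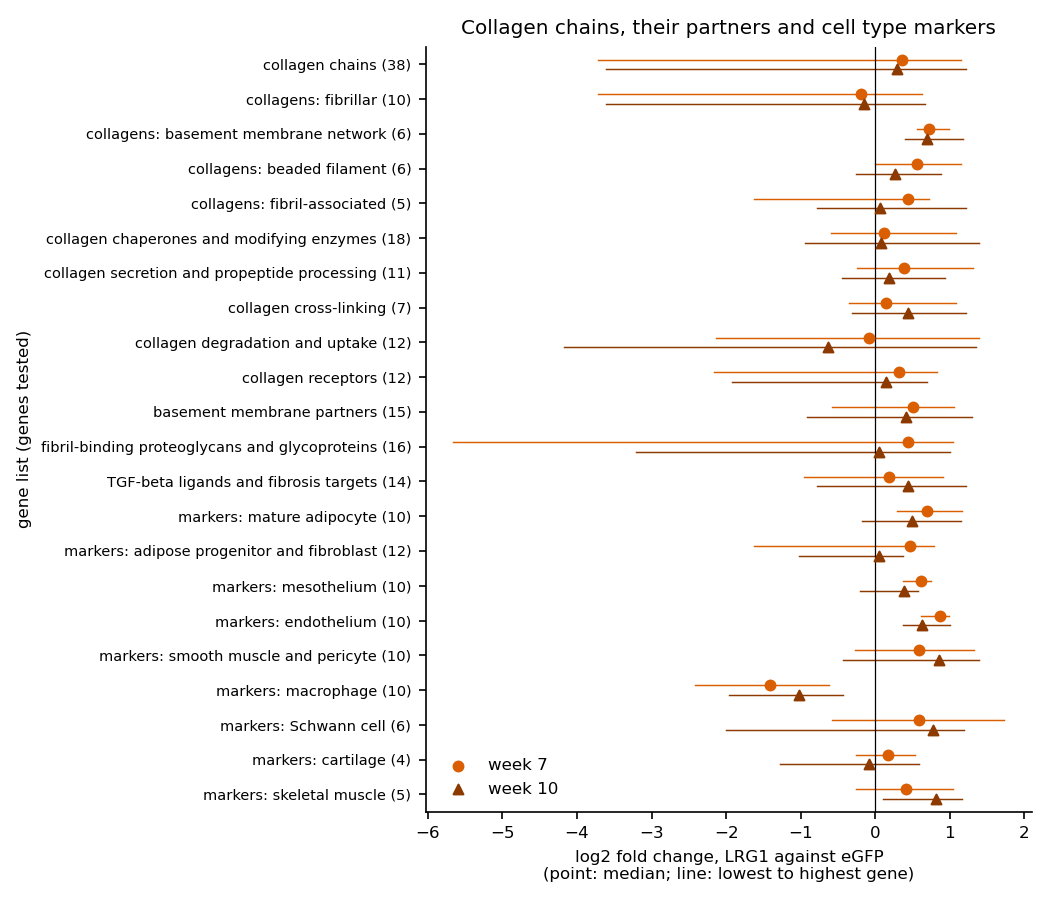
Log2 fold change of LRG1 against eGFP for the collagen chains, 4 of their families, lists of partners and lists of cell type markers (points are list medians, lines run from the lowest to the highest gene, with the number of tested genes in brackets). The medians of type IV chains and of endothelial and smooth muscle markers lie right of 0 and that of macrophage markers left of it at both weeks. Those of adipocyte, progenitor and fibroblast, mesothelial, Schwann cell and skeletal muscle markers also lie right of 0 at both weeks.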

How the data were processed

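The authors trimmed reads with Cutadapt, aligned them to mouse GRCm38 (mm10) with STAR and counted them with featureCounts. The deposited values are raw counts per Ensembl gene for 16 libraries, with 45376227 to 67539937 counts each. Versions, the strand setting and the treatment of multi-mapping reads are not given in the sources used here. Of 55573 identifiers, 55394 matched a symbol. Counts were filtered with filterByExpr, scaled by TMM (factors 0.847 to 1.1) and fitted in edgeR 4.0.16 (R 4.3.3) with 1 quasi-likelihood model of 4 groups and 5 contrasts; the SE is the fold change over the root of the F statistic. A call is a Benjamini-Hochberg adjusted p below 0.01 over 20822 genes. The fit was tested on simulated data. Chain ratios were compared by exact permutation tests. Alternatives were DESeq2 1.42.0, limma-voom 3.58.1, other scalings, filters and thresholds, a replicate block and leaving out libraries. Labels do not say whether libraries of a group were prepared separately, and p-values measure the spread between them.

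Named genes were the members called in any contrast, the chains of types I, III, IV (alpha 1 and 2), V, VI (alpha 1 to 3), XV and XVIII, the 5 highest per length, and up to 4 called genes of each partner list with the smallest p. No measured value entered the choice of the members, but they and the lists were chosen with earlier results of these data known. Lists of partners and markers came from textbook roles.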

Additional observations from a re-analysis of the deposited data

How the results depend on the processing

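Of the 9 chains called at week 7 and the 9 called at week 10, none changed direction under any alternative run, but the number of calls did change. At an adjusted p below 0.05, 15 chains were higher at week 7 and 16 at week 10, and 1 was lower at week 10 than at week 7 in eGFP mice. DESeq2 called 13 higher at each week and 1 lower for the change of the effect, and limma-voom called 1 lower at week 7 and 0 at week 10. Over all 20822 genes DESeq2 called 2400 higher at week 7, 1587 higher at week 10 and 40 lower for the change of the effect. The genes called lower by limma-voom were 2255 at week 7 and 639 at week 10. Scaling by library size only left 1 higher at each week, and among all genes at week 7 it called 341 higher and 3636 lower, against 1534 and 2221 with TMM. With at least 1 CPM in 4 libraries, Col9a3 was no longer tested and 1 chain was lower at week 7. Fits of only the libraries compared called 12 higher at week 7, and 0 higher and 0 lower at week 10, with 0 higher between weeks in eGFP mice. Over all genes these fits called 2581 of 19719 higher at week 7, 2 of 19128 higher at week 10, and 24 of 19523 higher between weeks in eGFP mice. Without eGFP replicates 1 and 3 of week 10 (chosen after seeing the data) there were 0 higher and 0 lower at week 10, and 0 higher and 2 lower between weeks in eGFP mice. Over all 21872 genes that fit called 87 higher and 74 lower at week 10, and 1063 and 1146 between weeks in eGFP mice. At week 10 the log2 difference then reversed to 0.18 for the Col6a3 to Col6a1 ratio and to -0.287 for Col4a5 to Col4a1. Leaving out 1 library at a time gave 1 to 8 higher and 0 to 2 lower at week 7, 0 to 14 higher and 0 to 1 lower at week 10, and 0 to 1 higher and 0 to 2 lower between weeks in eGFP mice. Over all genes, 705 to 1128 were then higher at week 7, 159 to 1601 at week 10, and 29 to 233 between weeks in eGFP mice. The causes were not tested. The log2 difference of the Col3a1 to Col1a1 ratio at week 7 ran from -0.101 to 0.0690 (-0.101 without LRG1 replicate 2 and -0.0539 without eGFP replicate 3), that of Col4a5 to Col4a1 at week 10 from -0.136 to 0.214 (-0.136 without eGFP replicate 3), and that of Col8a1 to Col8a2 at week 7 from -0.341 to 0.0634 (0.0634 without LRG1 replicate 3).

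The replicate numbers did not pair the libraries, since the deviations of same-numbered libraries correlated with a median r of -0.013 over 24 pairs (-0.2 to 0.142), with 3 pairs above 0.1. With the replicate block, 3 chains were higher and 0 lower at week 10 (532 and 642 of all 20822 genes), and 0 higher between weeks in eGFP mice (56 of all genes). Depth limits the chains of lowest level, of which Col9a3 had 3 to 21 counts in a library.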
